A study of Mus musculus with 2 samples.

Results

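Receptors for hematopoietic growth factors were examined in mouse hematopoietic stem cells (HSCs) that did or did not express SATB1, a nuclear protein that organizes chromatin and is best known from lymphoid cells. The set held 9 genes of the 23210 measured, chosen by name as receptors or receptor subunits for stem cell factor (SCF), FLT3 ligand, the colony-stimulating factors (CSFs), interleukin-3 (IL-3) and interleukin-6 (IL-6). They were Kit, Flt3, Csf1r, Csf2ra, Csf2rb, Csf2rb2, Csf3r, Il3ra and Il6ra. The set is not the whole family of growth factor receptors. The sort for both groups took LSK cells (negative for lineage markers, positive for Sca-1 and Kit) that were CD150-positive and Flt3-negative and carried a Tomato reporter of Satb1. One group was Tomato-negative (SATB1-negative) and the other Tomato-positive (SATB1-positive), with 1 RNA sequencing library each. The labels give no age or strain and do not say how many animals a library pooled. The question was how far each gene in SATB1-positive HSCs departs from its level in SATB1-negative HSCs.

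Growth factor receptors carry signals for survival, division and lineage output into blood progenitors. Kit, Flt3 and Csf1r are receptor tyrosine kinases of one family, which dimerize on binding their ligand and phosphorylate themselves. The others are type I cytokine receptor subunits without kinase activity of their own. The receptor complexes they form signal through bound JAK kinases to STAT transcription factors. Csf2ra and Il3ra are ligand-binding alpha subunits that pair with a beta subunit. In the mouse there are a pair of beta genes, Csf2rb, shared by the receptors for GM-CSF, IL-3 and IL-5, and Csf2rb2, which serves IL-3 alone. Csf3r, the G-CSF receptor, forms a homodimer, and Il6ra binds IL-6 and pairs with the signal transducer gp130, encoded by Il6st.

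The 2 beta genes are near-identical copies, so their sequences are shown first. Both lie on chromosome 15 of GRCm38 (mm10), Csf2rb on the plus strand at chr15:78325752-78353847 and Csf2rb2 on the minus strand at chr15:78282507-78305721. In GENCODE M21 their coding sequences are 2688 and 2634 bases long, and 95.2% of 2628 aligned bases were identical. The 242-base stretch below is the longest run without a mismatch (coding bases 2083 to 2324 of both genes, at chr15:78348577-78348818 on the plus strand for Csf2rb and chr15:78284630-78284871 on the minus strand for Csf2rb2). A fragment that falls wholly within it cannot be assigned to one gene by its sequence.
Csf2rb and Csf2rb2: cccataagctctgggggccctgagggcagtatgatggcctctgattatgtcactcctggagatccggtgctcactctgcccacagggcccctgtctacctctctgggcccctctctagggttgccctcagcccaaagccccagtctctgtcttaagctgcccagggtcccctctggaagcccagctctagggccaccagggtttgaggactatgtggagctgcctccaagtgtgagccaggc

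The least similar gap-free stretch of 90 coding bases had 16 mismatches, 82.2% identity, and shows where fragments can be told apart. It covers coding bases 308 to 397 of Csf2rb (chr15:78338897-78338986, plus strand) and 311 to 400 of Csf2rb2 (chr15:78294345-78294434, minus strand). Capitals mark the mismatched bases.
Csf2rb: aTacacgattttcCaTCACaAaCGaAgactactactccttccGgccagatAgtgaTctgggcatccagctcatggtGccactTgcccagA
Csf2rb2: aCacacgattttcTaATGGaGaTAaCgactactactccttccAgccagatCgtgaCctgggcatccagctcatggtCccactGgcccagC

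Over whole transcripts, untranslated parts included, 18.4% of the 50-base words of Csf2rb and 19.5% of those of Csf2rb2 also occurred in a transcript of another gene, nearly all of them in each other. How such fragments were divided is not given in the sources, so the split between these 2 genes is less certain than their sum. For Kit, Flt3, Csf1r, Csf2ra and Il3ra no 50-base word occurred in any other gene's transcript. Csf3r shared 11.5% of its words, mostly with AC105061.2, and Il6ra shared 2.25% with Gm42809, an antisense gene.

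**Figure D1:**
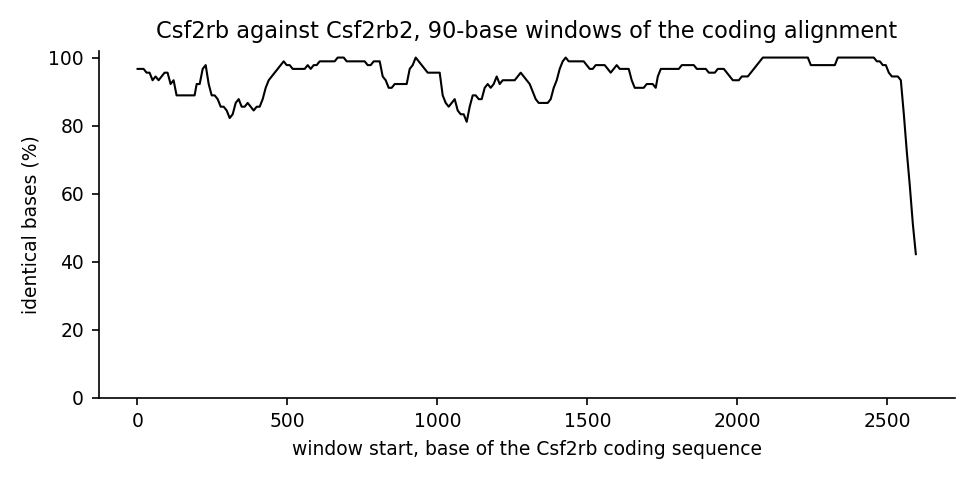
Identity of the Csf2rb and Csf2rb2 coding sequences in 90-base windows of their alignment (y axis, percent of identical bases) against the window's first base in Csf2rb (x axis). Identity is 95.2% over the aligned bases, and the drop at the right end lies where the coding sequences end differently, which leaves gaps in the alignment.

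Of the 9 receptors, 8 were higher in the SATB1-positive library, and Kit alone was lower. None met the rule of size used in place of a test, which asks for a log2((SATB1-positive FPKM + 1)/(SATB1-negative FPKM + 1)) of 1 or more, or of -1 or less, and for 5 FPKM or more in the higher library. Csf2rb came nearest at 0.99. Where a pair of values is given, the SATB1-negative library comes first. FPKM is the number of fragments per kilobase of transcript, scaled by the total of mapped fragments, so levels of different genes can be compared per length. Of the 9308 genes that reached 5 FPKM in a library, 1.31% met the rule as higher and 0.688% as lower. A log2 ratio above 0 was found for 49.0% of the 11873 genes that reached 1 FPKM in a library, and their median ratio was -0.0059. The median over the 9 receptors was 0.47 (0.23 with a pseudocount of 5), and all of them had more than 1 FPKM in both libraries. With 1 library per group there is no replicate check and no p-value. Intervals beside folds are exact (Clopper-Pearson) 95% intervals for counting error only, from fragment numbers estimated with depths of about 35080000 and 26900000 fragments for the SATB1-negative and SATB1-positive library. Copies of a molecule made by PCR count as separate fragments, so these intervals can be too narrow.

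**Figure D2:**
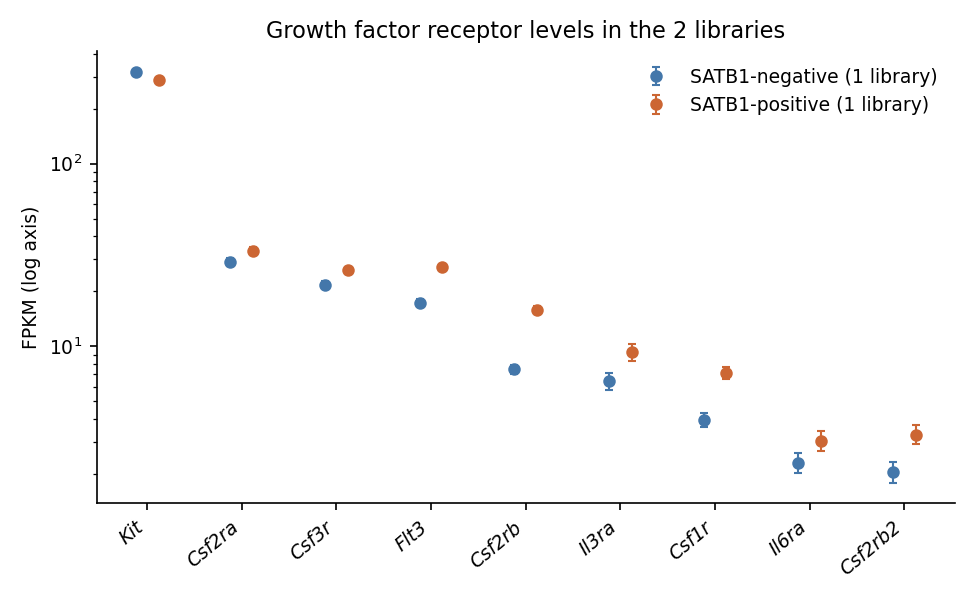
FPKM (y axis, log scale) of each receptor in the SATB1-negative and the SATB1-positive library, 1 point per library, with 95% Poisson intervals for counting error. Kit lies far above the other receptors at 318 and 286 FPKM, and it is the 1 receptor whose SATB1-positive point is the lower.

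Kit, the SCF receptor and a gate of the sort, was the most abundant receptor in both libraries. It was at 318 FPKM in SATB1-negative HSCs and at 286 FPKM in SATB1-positive HSCs, 1.11-fold lower (1.10 to 1.13) in the latter, a log2 ratio of -0.15. Its level stood 10.998-fold above the next receptor, Csf2ra, in the SATB1-negative library and 8.57-fold above it in the SATB1-positive library. A difference of this size was common: 44.4% of the 412 genes whose mean level was within 2-fold of Kit's had an absolute log2 ratio at least as large. The gene (ENSMUSG00000005672.12) lies on the plus strand of chromosome 5 at 75574916 to 75656722. The 3 genes most alike in level, by distance in log2(FPKM + 1) over the 2 libraries, were Bzw1 (distance 0.043), Ptprcap (0.046) and Eif3k (0.080). Bzw1 was at 314 and 294 FPKM.

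Flt3, a receptor of multipotent and lymphoid-primed progenitors, was at 17.3 FPKM in SATB1-negative HSCs and at 27.1 FPKM in SATB1-positive HSCs. The difference was 1.56-fold (1.48 to 1.66), a log2 ratio of 0.62, from about 2098 and 2517 fragments. Its transcript was thus detected in both libraries although the cells were sorted as negative for the protein. Among 4492 genes of like level, 4.67% had an absolute ratio at least as large. The level of Kit was 18.4-fold (17.6 to 19.2) that of Flt3 in SATB1-negative HSCs and 10.6-fold (10.1 to 11.0) in SATB1-positive HSCs, so the intervals of the 2 libraries did not overlap. The position of Flt3 is chr5:147330741-147400489, minus strand.

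Csf1r, the macrophage CSF receptor, was at 3.94 FPKM in SATB1-negative HSCs and at 7.14 FPKM in SATB1-positive HSCs. This was 1.81-fold higher (1.61 to 2.03) in the SATB1-positive library, the second highest ratio of the set, at a log2 ratio of 0.72. Of 3237 genes of like level, 6.49% had an absolute ratio at least as large. The gene lies on the plus strand of chromosome 18 at 61100598 to 61132149. Exons of Hmgxb3 on the opposite strand cover 15.1% of its exon bases, and the sources used here do not say whether counting used strand. Hmgxb3 was itself at 10.3 and 13.02 FPKM, and its part in the Csf1r values was not tested.

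Among the alpha subunits, Csf2ra, the GM-CSF-binding chain, was at 28.9 FPKM in SATB1-negative HSCs and at 33.4 FPKM in SATB1-positive HSCs. The values were 1.15-fold apart (1.08 to 1.24). Il3ra, the IL-3-binding chain, was at 6.41 FPKM and 9.24 FPKM, 1.44-fold higher (1.23 to 1.68) in the SATB1-positive library. Csf2ra thus ranked as the second most abundant receptor in both libraries and differed little between them, with 35.5% of genes of like level having an absolute ratio at least as large. For Il3ra that share was 14.9%. The positions are chr19:61223957-61228429 on the minus strand for Csf2ra and chr14:14346275-14356011 on the plus strand for Il3ra.

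Csf2rb, the shared beta subunit, had the largest difference of the 9 receptors. It was at 7.48 FPKM in SATB1-negative HSCs and at 15.8 FPKM in SATB1-positive HSCs, from about 1196 and 1937 fragments. That is 2.11-fold higher (1.96 to 2.27), with a log2 ratio of 0.99, which misses the rule of size by a narrow margin and passes it with a pseudocount of 0.1 (1.07). Among 4278 genes of like level, 2.17% had an absolute ratio at least as large. Csf2rb2, the IL-3-specific beta subunit, was at 2.05 and 3.27 FPKM, 1.60-fold higher (1.34 to 1.92). Summed, the 2 beta genes were at 9.53 and 19.1 FPKM, 2.001-fold apart and with a log2 ratio of 0.93. Csf2rb2 made up 21.5% of this sum in SATB1-negative HSCs and 17.2% in SATB1-positive HSCs. The sum depends less than either gene on how fragments of the stretches identical between the 2 genes were divided. The genes closest to Csf2rb in level over the 2 libraries were Gpc1 (distance 0.14, at 8.24 and 15.1 FPKM), Sema4a (0.15) and Akna (0.17).

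The balance of alpha and beta chain transcripts differed between the libraries by more than counting error. Csf2ra stood 3.87-fold (3.59 to 4.17) above Csf2rb in the SATB1-negative library and 2.11-fold (1.97 to 2.26) above it in the SATB1-positive library. Il3ra was at 0.856 times the Csf2rb level (0.755 to 0.971) in SATB1-negative HSCs and 0.585 times (0.520 to 0.655) in SATB1-positive HSCs. The beta subunit was the lower of the GM-CSF receptor's chains in both libraries. Il5ra, the IL-5-binding chain that shares Csf2rb, was at 0.825 and 1.31 FPKM. These ratios use Csf2rb alone and leave out Csf2rb2, the other beta chain of IL-3. Neither the spread between animals or sorts nor the division of fragments between Csf2rb and Csf2rb2 is in these intervals.

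Csf3r, the G-CSF receptor of the neutrophil lineage, was at 21.7 FPKM in SATB1-negative HSCs and at 26.1 FPKM in SATB1-positive HSCs, 1.20-fold higher (1.13 to 1.27). Il6ra, the IL-6-binding chain, was at 2.29 and 3.02 FPKM, 1.32-fold higher (1.10 to 1.58). Its partner gene Il6st was at 8.48 and 7.90 FPKM, so it lay 3.70-fold (3.26 to 4.24) above Il6ra in SATB1-negative HSCs and 2.62-fold (2.29 to 2.99) above it in SATB1-positive HSCs. Differences like that of Il6ra were frequent at its level, where 40.6% of 2313 genes had an absolute ratio at least as large, and for Csf3r the share was 27.5%. Csf3r lies on the plus strand of chromosome 4 at 126024550 to 126044440 and Il6ra on the minus strand of chromosome 3 at 89864059 to 89913196.

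**Figure D3:**
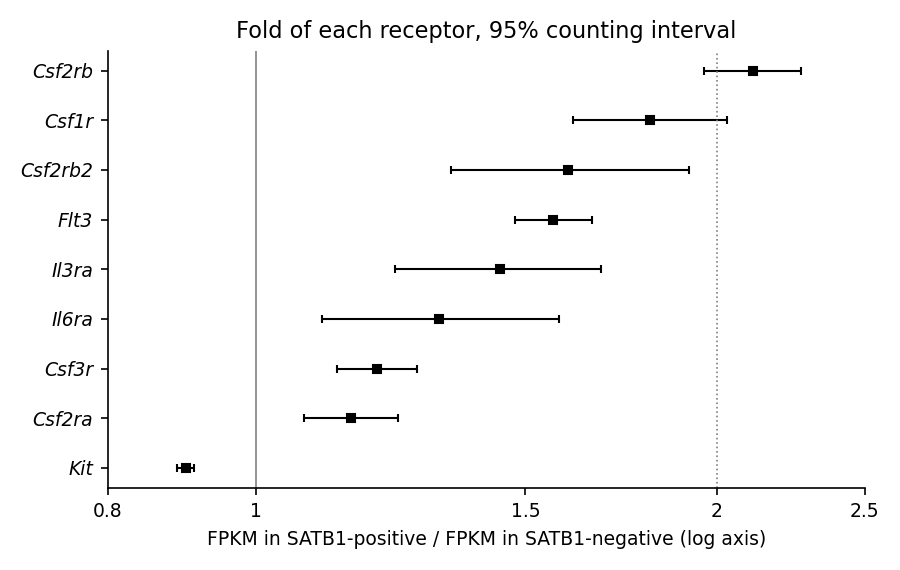
Ratio of SATB1-positive to SATB1-negative FPKM (x axis, log scale) for each receptor, with 95% intervals for counting error from estimated fragments. Kit lies left of 1 at 0.900 and the other receptors lie between 1.15 (Csf2ra) and 2.11 (Csf2rb), with no interval reaching 1.

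The order of the levels was nearly the same in both libraries. It ran Kit, Csf2ra, Csf3r, Flt3, Csf2rb, Il3ra, Csf1r, Il6ra and Csf2rb2 in the SATB1-negative library. In the SATB1-positive library Flt3 stood before Csf3r and Csf2rb2 before Il6ra. Flt3 and Csf3r there differed by 1.04-fold (0.981 to 1.10), which is within counting error, whereas in the SATB1-negative library Csf3r was 1.25-fold (1.18 to 1.33) above Flt3. The lowest members, Il6ra and Csf2rb2, did not differ beyond counting error in either library, at ratios of 1.12 (0.934 to 1.35) and 1.08 (0.911 to 1.29). All other neighbours in the order differed beyond counting error.

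**Figure D4:**
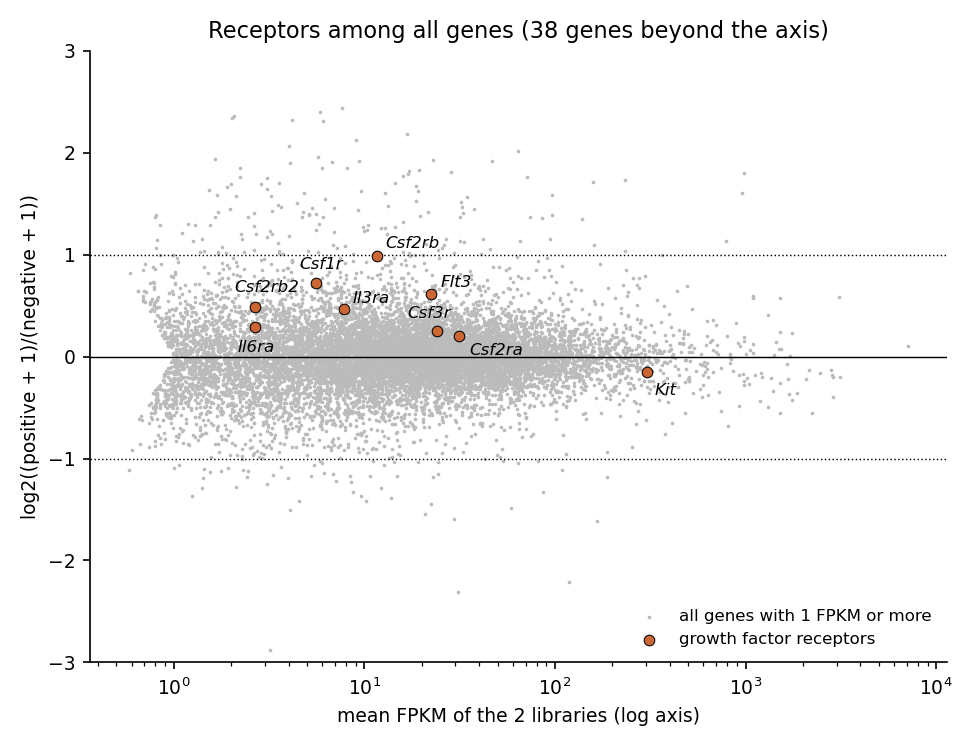
Log2 ratio (y axis) against the mean FPKM of the 2 libraries (x axis, log scale) for the 11873 genes that reached 1 FPKM in a library, with the 9 receptors marked. The receptors lie between -0.15 (Kit) and 0.99 (Csf2rb), inside the dotted lines of the rule of size at 1 and -1.

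Of the 8 ligand genes of these receptors, 4 reached 1 FPKM in either library, and 1 of those met the rule of size. Il6 was at 2.15 FPKM in SATB1-negative HSCs and at 7.42 FPKM in SATB1-positive HSCs, 3.45-fold higher (2.28 to 5.23; about 34 and 89 fragments). Its log2 ratio of 1.42 became 0.80 with a pseudocount of 5 in place of 1, which ends the call. Csf2, encoding GM-CSF, was at 0.0694 and 1.62 FPKM from about 1 and 26 fragments, a ratio of 23.4 with an interval from 5.57 to 1390. Csf1 was at 3.44 and 4.50 FPKM and Flt3l at 10.04 and 9.62 FPKM. Kitl, encoding SCF, was at 0.208 and 0.250 FPKM, Il34 at 0.0379 and 0.0494 FPKM and Csf3 at 0.0745 and 0.0323 FPKM. Il3 was listed at 0 in both libraries.

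Of 11 partner and related receptor genes, 6 were measured, 2 of them above 0 and 4 below, with a median log2 ratio of -0.23. Tek, the angiopoietin receptor of HSCs and endothelium, was at 25.6 FPKM in SATB1-negative HSCs and at 15.5 FPKM in SATB1-positive HSCs, 1.65-fold lower (1.56 to 1.75). Il11ra1, which also signals through gp130, was at 29.2 and 19.9 FPKM, and Il27ra at 28.7 and 21.9 FPKM. The erythropoietin receptor gene Epor, picked after its values were known, was at 11.6 and 9.26 FPKM, 1.25-fold lower (1.10 to 1.43). Pdgfrb, a stromal receptor of the same kinase family as Kit, was the 1 member that met the rule, at 3.25 and 10.6 FPKM, and did not meet it with a pseudocount of 5 (log2 ratio 0.92). Of 10 stroma markers, Pdgfrb among them, 5 were measured and 4 met the rule as higher (1 with a pseudocount of 5), with sums of 37.7 and 93.4 FPKM. Col1a1, at 16.8 and 48.3 FPKM, was the most abundant of them. The other measured marker, Cxcl12, was lower in the SATB1-positive library, at 4.19 and 2.87 FPKM. Col3a1, Pdgfra, Lepr, Dcn and Cdh5 stayed under 1 FPKM in both libraries. The part of stromal cells in the Pdgfrb value was not tested. Kdr was at 0.839 and 0.378 FPKM, and Lifr, Osmr, Pdgfra and Flt1 stayed under 0.3 FPKM in both libraries.

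Genes that carry the signal inside the cell had ratios on both sides of 0, from -0.44 for Gab1 to 0.66 for Fes. Among all genes with 5 FPKM or more in a library, 2.0% met the rule in either direction. All 11 JAK and STAT genes were measured, 6 above 0 and 5 below, with 0 past the rule and a median log2 ratio of 0.04. Jak1 was the most abundant at 119 and 115 FPKM. The ratios ran from -0.43 for Stat4 to 0.33 for Tyk2, and Stat5a, a factor of many cytokine receptors, was at 41.5 and 49.99 FPKM. Of 24 receptor-proximal adaptors and effectors, 14 were above 0 and 10 below, with a median of 0.05 and 0 past the rule. Fes, a cytoplasmic tyrosine kinase of myeloid cells, had the highest ratio at 18.9 and 30.4 FPKM (1.61-fold, 1.51 to 1.72), and Plcg1 the next at 14.8 and 21.7 FPKM. Gab1, a docking protein, had the lowest at 11.5 and 8.23 FPKM.

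Of 18 negative regulators of receptor signalling, 7 were above 0 and 11 below, with 0 past the rule and a median log2 ratio of -0.10. Cish, an inhibitor induced by STAT5, was at 58.2 FPKM in SATB1-negative HSCs and at 36.6 FPKM in SATB1-positive HSCs, 1.59-fold lower (1.52 to 1.67). Socs2, induced by the same factor, was at 31.7 and 19.9 FPKM, 1.59-fold lower (1.41 to 1.80). Cbl, a ubiquitin ligase that removes active receptors, was at 8.15 and 11.4 FPKM. Of 15 cytokine-induced targets, which include Cish, Socs2 and Socs3, 10 were below 0 and 5 above, with a median of -0.24. Id1 was at 30.6 and 17.0 FPKM, 1.80-fold lower (1.58 to 2.06). Osm, encoding oncostatin M, was the 1 target past the rule, at 8.04 and 20.8 FPKM (2.59-fold higher, 2.34 to 2.86), and a pseudocount of 5 put it just short (log2 ratio 0.98). Pim1, a kinase gene, was at 34.1 and 47.7 FPKM.

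Transcription factors known to act on receptor genes had ratios on both sides of 0, with 11 of 19 above and a median of 0.02. The 2 past the rule were Cebpa, a factor of granulocyte and monocyte commitment that acts on Csf3r, at 2.18 and 7.23 FPKM, and Gfi1, at 5.37 and 14.4 FPKM. Neither met it with a pseudocount of 5, at log2 ratios of 0.77 and 0.90. Sfpi1, the older symbol of Spi1 that encodes the myeloid factor PU.1, was at 73.0 and 83.6 FPKM; it was picked after its values were known. Tal1 was at 18.6 and 10.7 FPKM, Hoxa9 at 24.8 and 15.6 FPKM and Lmo2 at 671 and 508 FPKM. The 250 bases before the RefSeq start site (GRCm38.p6) were available for 7 of the 9 receptors and were searched on both strands for 5 motifs. For Kit, Csf3r, Csf2ra and Il3ra the gene span given above, from GENCODE M21, starts further upstream. Part of their 250 bases thus lies inside that span. NAGGAAGT (N is any base), a form bound by ETS factors such as PU.1, was found for Il3ra and Il6ra among the 7, and in 7.76% of 27025 promoters of the same length. TTGCNNAA, a C/EBP form, was found for Il3ra (9.55% of all promoters), where it overlaps the NAGGAAGT match by 1 base. NAGATAAN, a GATA form, was found for Il6ra (10.2%), and TTCNNNGAA, a STAT form, for Csf2rb2 (7.18%). NTGTGGTN, a RUNX form, was found for none of the 7 (14.1%). A match is a description of letters and not a measured site. The Il3ra matches lie after the GENCODE start of that gene at 14346275. The promoters with NAGGAAGT are shown, with that match in capitals, for Il3ra at chr14:14346245-14346494 (plus strand) and Il6ra at chr3:89913197-89913446 (minus strand).
Il3ra: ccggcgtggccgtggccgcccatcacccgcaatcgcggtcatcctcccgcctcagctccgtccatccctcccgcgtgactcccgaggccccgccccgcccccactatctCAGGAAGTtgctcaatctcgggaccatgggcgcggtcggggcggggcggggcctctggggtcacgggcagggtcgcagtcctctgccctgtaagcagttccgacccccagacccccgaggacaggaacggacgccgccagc
Il6ra: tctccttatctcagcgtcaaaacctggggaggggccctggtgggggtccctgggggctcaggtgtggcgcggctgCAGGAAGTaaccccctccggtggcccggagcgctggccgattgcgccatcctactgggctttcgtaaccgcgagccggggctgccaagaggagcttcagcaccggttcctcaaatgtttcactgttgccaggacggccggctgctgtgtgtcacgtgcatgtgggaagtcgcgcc

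Markers of several other cell types were also higher in the SATB1-positive library. In bulk RNA, a different share of cells of a type and a different amount of RNA per cell cannot be told apart. Among all genes with 5 FPKM or more in a library, 1.31% met the rule as higher and 0.688% as lower. Of those with 1 FPKM or more, 49.0% were above 0. Of 11 basophil and mast cell markers, 7 were measured and 6 met the rule as higher. Their summed level was 319 FPKM in SATB1-negative HSCs and at 727 FPKM in SATB1-positive HSCs, and Gata2 (153 and 137 FPKM) made up much of the former. The basophil protease Mcpt8 was at 24.8 and 103 FPKM and the high-affinity IgE receptor chain Fcer1a at 1.75 and 9.70 FPKM. Basophils and mast cells are known to carry Il3ra and Csf2rb. Of the mast cell proteases, Mcpt4 was at 0 in both libraries, and Cma1, Tpsb2 and Tpsab1 were at 0 in the SATB1-negative library and stayed under 1 FPKM in the other.

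Of 14 monocyte and macrophage markers, 9 were measured, 8 above 0 and 1 below, with 0 past the rule and a median of 0.49. Their sum was 210 FPKM in SATB1-negative HSCs and at 360 FPKM in SATB1-positive HSCs, most of it Ly6c2 (167 and 302 FPKM). The macrophage gene Emr1, an older symbol of Adgre1, was at 3.25 and 2.88 FPKM and Ccr2 at 9.41 and 15.8 FPKM. Csf1r is itself a gene of that lineage. Of 13 neutrophil markers, all measured, 6 were above 0 and 7 below, with a median of -0.10. Those that met the rule were 3 primary granule genes, all higher: Mpo (437 and 1528 FPKM), Elane (490 and 1081 FPKM) and Ctsg (31.9 and 111 FPKM). The sums over the list, 1918 and 3714 FPKM, thus go the other way from its median, and most of their difference lies in Mpo and Elane. The later granule genes Camp (84.8 and 56.0 FPKM) and Ltf (66.7 and 47.1 FPKM) were lower in the SATB1-positive library.

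All 11 T and NK cell markers were above 0, and 6 met the rule as higher (4 with a pseudocount of 5), with sums of 32.2 and 123 FPKM. Cd3e was at 2.76 and 15.4 FPKM. These lymphocytes are a known source of Csf2. Flt3 is also a marker of lymphoid-primed progenitors, of which 7 of 9 genes were measured and all 7 were above 0. These 7 include Flt3 itself and Satb1. The groups were sorted by a reporter of Satb1, so its higher level is no independent observation. Il7r, at 0.727 and 7.64 FPKM, and Satb1, at 2.37 and 8.26 FPKM, were among those that met the rule, and Satb1 did not meet it with a pseudocount of 5 (log2 ratio 0.85). Of 10 dendritic cell markers, a list that also holds Flt3, 6 were measured and 0 met the rule, with sums of 107 and 129 FPKM, and Siglech stayed under 0.3 FPKM in both libraries. For the stem cell label itself, all 14 markers were measured in both libraries, and 12 were lower in the SATB1-positive library, with sums of 882 and 762 FPKM. The others, Cd34 (167 and 248 FPKM) and the Sca-1 gene Ly6a (64.5 and 73.9 FPKM), were higher. Mycn alone met the rule as lower, at 86.6 and 41.5 FPKM, and fell short of it with a pseudocount of 5 (log2 ratio -0.98). Hoxb5, at 3.74 and 1.08 FPKM, had the lowest log2 ratio of the list (-1.19) but did not reach 5 FPKM. The CD150 gene Slamf1, a gate of the sort, was at 15.97 FPKM and 11.9 FPKM. Cd48, a gene outside the list, was at 47.6 and 145 FPKM, 3.05-fold higher (2.85 to 3.26), and met the rule as higher. The part of any of these cell types in the receptor values was not tested.

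**Figure D5:**
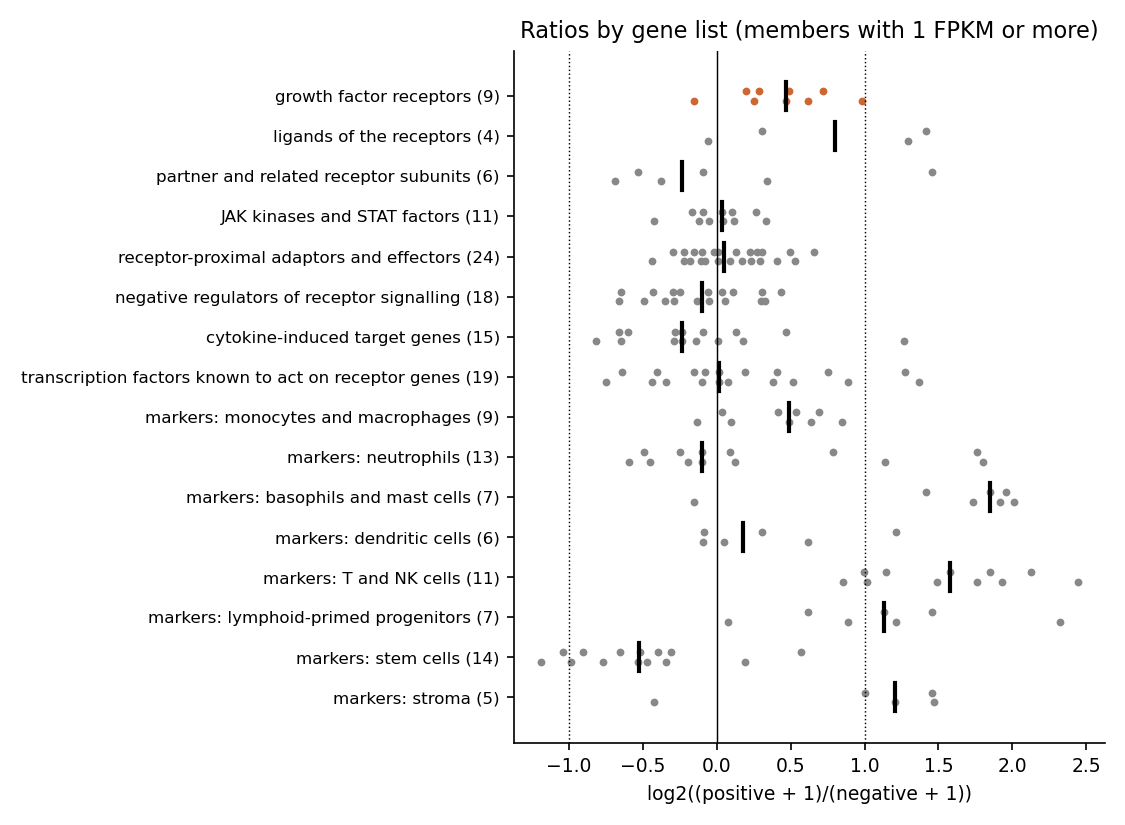
Log2 ratio (x axis) of every list member that reached 1 FPKM in a library, by list (y axis, with the number of genes measured), and each list's median as a bar. The receptors have a median of 0.47, the JAK and STAT genes 0.04 and the cytokine-induced targets -0.24, while the basophil and mast cell markers stand at 1.85.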

How the data were processed

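The cells were CD150-positive Flt3-negative LSK cells. Per the labels' protocols, the miRNeasy kit yielded total RNA and the SMARTer Stranded kit of Clontech the libraries. Both deposited files hold FPKM, per the file headers, with 1 value for each symbol. The tools in the submitters' processing notes are Cufflinks 2.2.1, TopHat2 2.0.13, SAMtools 0.1.19 and Bowtie2 2.2.3, and the build is mm10. What each tool did, its settings, the annotation and the strand setting are not given in the sources. Each file held 23235 rows, of which 25 carried a spreadsheet date in place of a symbol and were left out.

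The members and gene lists were chosen with earlier results of these data known. No test was possible with 1 library per group, and the rule of size stood in for one. Named genes were the 9 receptors, all ligands and related receptors, and from each other list the highest 2 and lowest 2 ratios, the most abundant member and those past the rule. Not every gene this rule names is reported here. Genes most alike in level were taken among protein-coding genes with at least 1 FPKM. Spi1, Fer and Adgre1 were matched by older symbols, and Trbc2 and Ighm were not matched.

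Depth was estimated from low FPKM values of genes with 1 exon and 1 transcript in GENCODE M21, which step by the value of 1 fragment. Depth and a length offset of 205 bases were searched together, and 63.9% of 147 and 64.5% of 183 values were whole within 0.05 fragments. A random depth gives 10%, but the search chose this share, so 10% is not its chance level. A doubled depth also gives whole numbers, so the smallest depth near the best share was taken. Fragments used the shortest RefSeq-linked transcript. The scripts for the rule and the counting interval were tested on data simulated with counting error alone, which says nothing of the spread between samples. Python 3.11.15, SciPy 1.17.1 and Biopython 1.88 were used. As alternatives, the pseudocount was set to 0.1 or 5, values were scaled by the sum (TPM), the upper quartile or the median ratio, and other minimums, a 4-fold threshold and the longest transcript were tried.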

Additional observations from a re-analysis of the deposited data

How the results depend on the processing

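The direction of each of the 9 receptor ratios held under both other pseudocounts and all 3 other scalings. The count of receptors past the rule of size became 1 (Csf2rb) with a pseudocount of 0.1 (log2 ratio 1.07) and with scaling to the sum (1.03), which enlarges every value beside the pseudocount, and was 0 under the others. With a pseudocount of 5 the genes past the rule were 68 higher and 36 lower, against 122 and 64. The calls of Il6, Pdgfrb, Osm, Cebpa, Gfi1, Satb1, Cd3d, Lck, Col1a2, Sparc and Mycn ended there, while the neutrophil and the basophil and mast cell lists held 3 and 6 genes past the rule as before. With a 4-fold threshold the genes past the rule were 24 and 25, and scaling to the sum gave 174 higher and 100 lower. Among list members beside Csf2rb, scaling to the sum added calls for Zap70, Klrd1 and Dntt as higher and Hoxb5 as lower. A pseudocount of 0.1 added Esam as lower. Sparc also lost its call with upper-quartile scaling. List medians that moved by 0.1 or more were as follows. With a pseudocount of 0.1 the ligand median of 0.80 became 1.06, the monocyte median of 0.49 became 0.69, the basophil and mast cell median of 1.85 became 1.96, the T and NK cell median of 1.58 became 2.24 and the lymphoid-primed median of 1.13 became 1.29. With a pseudocount of 5 these were 0.28, 0.19, 1.18, 0.74 and 0.52, the stromal median of 1.20 became 0.92 and the receptor median of 0.47 became 0.23. With scaling to the sum the ligand and T and NK cell medians were 0.96 and 1.98. Over all members, many of them near 0 FPKM, the median of partner and related receptors turned from -0.23 to 0.0069, and the ligand, monocyte, basophil and mast cell, dendritic, lymphoid-primed and stromal medians were 0.0321, 0.20, 1.42, 0.0072, 0.89 and 0.33. Over members with at least 5 FPKM the ligand, partner, monocyte, dendritic, T and NK cell, lymphoid-primed and stromal medians were 0.68, -0.38, 0.64, 0.31, 1.89, 1.30 and 1.33. The other scalings moved all genes by at most 0.0054 on the log2 scale. Leaving out replicates was not possible with 1 library per group. No paired analysis was possible because each group has 1 library.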
